A study of Mus musculus with 4 samples.

Results

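A cluster that the authors named High_Btg1 held 67 of the 27366 deposited cells, the fewest of their 9 clusters. Its members were taken as they stand in the deposited cell annotation, and Btg1 was the gene given to mark them. The series profiled bone marrow-derived macrophages, primary cells grown from mouse marrow in the growth factor M-CSF (50 ng/mL), by droplet single-cell RNA sequencing with poly-A capture. The library KO_LPS came from mice labelled Trpv4-null and was treated with lipopolysaccharide (LPS), a bacterial cell wall component, at 100 ng/mL for 24 h. KO_UnT came from the same genotype, untreated. WT_LPS (C57BL/6J, LPS as above) and WT_UnT (C57BL/6J, untreated) were the wild-type libraries, and all mice were aged 8 to 12 weeks. The title names TRPV4, a mechanosensitive ion channel, and the transcription factor NF-kB. The design text counts 3 mice per genotype, but no annotation ties a cell to a mouse, so each group was 1 library with an unknown mixture of mice. No comparison has a replicate check and no p-value is given; intervals are 95% intervals that cover counting error only.

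Btg1 encodes an antiproliferative protein of the Btg and Tob family. These proteins bring the Ccr4-Not deadenylase to mRNAs and thereby speed the removal of poly-A tails. In lymphocytes Btg1 is known for keeping resting cells at rest, and its transcription is among those driven by FoxO factors, which are active when growth factor signalling is low. After LPS, macrophages make large amounts of cytokine, chemokine and interferon-stimulated mRNA, and ferritin, the iron storage protein, is among their most abundant transcripts.

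The cluster held 23 cells in KO_LPS, 3 in KO_UnT, 36 in WT_LPS and 5 in WT_UnT. High_Btg1 cells were thus 0.350% of the 6565 KO_LPS cells (exact binomial interval 0.222% to 0.525%) and 0.434% of the 8288 WT_LPS cells (0.304% to 0.601%). The share in KO_LPS was 0.807 times that in WT_LPS, with an exact conditional interval of 0.456 to 1.40 that includes 1, so no difference was detectable with this number of cells. The 8 untreated cells, of 5485 and 7028 cells, are given as counts only. In the authors' UMAP coordinates the rectangle spanned by the 67 cells contained 0 cells of another cluster. Of 27292 distinct barcodes, 74 occurred in more than 1 library, and 0 of the cluster's cells carried one of them.

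The summed cells had 449900 unique molecular identifiers (UMIs, tags that count mRNA molecules) in KO_LPS and 635864 in WT_LPS. Values below are UMIs per 1000000 (CPM) of these sums, set against the sum of all other cells of the same library. Trpv4 itself had 1049 UMIs over all KO_LPS cells (9.62 CPM) against 298 in WT_LPS (2.07 CPM), and 404 in KO_UnT (8.60 CPM) against 255 in WT_UnT (5.83 CPM). Trpv4 RNA was thus present in the libraries labelled null, at a higher level than in wild type. The part of the gene that the allele lacks is not given in the sources used here, so RNA counts cannot tell whether the protein was lost. Within the cluster Trpv4 had 8 UMIs in KO_LPS and 6 in WT_LPS.

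Markers of macrophages were present. All 14 macrophage markers, among them Csf1r, the M-CSF receptor, with 647 CPM in KO_LPS and 766 CPM in WT_LPS, were at 20 CPM or more in both cluster sums. Their summed level was 22938 CPM in the KO_LPS cluster cells, against 29643 to 38447 CPM in the other clusters, and 21907 CPM in the WT_LPS cluster cells, against 28642 to 38971 CPM. The lysozyme gene Lyz2 made up most of this gap, with 6882 CPM in the KO_LPS cluster cells against 14367 CPM in the other cells and 7156 against 16024 CPM in WT_LPS. Most markers of other cell types were at or near 0. The progenitor markers Cd34, Elane, Prtn3 and Ctsg, the mast cell marker Kit and the stromal marker Dcn had 0 UMIs in both sums, and the summed B cell and T or NK cell markers stayed at or below 4.72 CPM. Of 7 monocyte markers only Ms4a4c reached 20 CPM, and of 10 dendritic cell markers only Bst2 and Irf8, both widely expressed in macrophages, while Flt3, Zbtb46, Xcr1, Cd209a, Siglech and Ccr7 were at 0 in both. The endothelial list reached 20 CPM through Kdr alone, with 44.5 CPM in KO_LPS cluster cells against 17.5 CPM in other cells and 23.6 against 9.84 CPM in WT_LPS. The neutrophil gene S100a8 had 86.7 CPM in KO_LPS, where 1 cell held 76.9% of its UMIs, and 18.9 CPM in WT_LPS; its partner S100a9 had 1 UMI in KO_LPS and 0 in WT_LPS. Csf3r, the other neutrophil marker at 20 CPM or more, had 73.3 CPM against 81.7 CPM in KO_LPS and 64.5 against 69.5 CPM in WT_LPS. Osteoclast markers summed to 62.2 and 28.3 CPM, with Dcstamp and Ocstamp at 0, and the eosinophil markers to 31.1 and 14.2 CPM, through Ccr3 alone; for comparison, the other cells had 41.5 and 46.0 CPM of the osteoclast markers and 24.9 and 21.6 CPM of the eosinophil markers, in KO_LPS and WT_LPS. Some lists could be read only in part, as 4 of 9 B cell and 3 of 11 T or NK cell markers were in the table. Of the mast cell or basophil markers 1 of 6 was there, of the stromal ones 1 of 5 and of the eosinophil ones 2 of 4. No erythroid marker was in the table.

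The cells were as deep as their neighbours but held more kinds of transcript. The median High_Btg1 cell had 18882 UMIs in KO_LPS, against 16027 in the other cells, and 16909.5 UMIs in WT_LPS, against 16673.5. It had 4592 genes detected against 3555.5 in KO_LPS, and 4611.5 against 3715 in WT_LPS. Thinning every cell to 5000 UMIs left out 1 WT_LPS member, and 282 other cells in KO_LPS and 327 in WT_LPS. The median was then 2150 genes in KO_LPS members against 1808 in other cells, and 2210 against 1836 in WT_LPS. Proliferating, next in this order, had medians of 1897 and 1910 genes, and the lowest thinned members of High_Btg1 had 1926 and 1925. Whether doublets were removed before deposit is not given in the labels, none were called here, and their part in the result was not tested. The mitochondrial share was 3.17% against 3.19% in KO_LPS and 2.67% against 3.05% in WT_LPS, at the median.

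Btg1 was the gene the cluster is named for, and it was found in every member after LPS. The sum held 670 Btg1 UMIs in KO_LPS, found in 23 of 23 cells, and 842 UMIs in WT_LPS, found in 36 of 36. That is 1489 CPM (1379 to 1606) in KO_LPS against 182 CPM in the other cells, and 1324 CPM (1236 to 1417) in WT_LPS against 226 CPM. Per cell, the lowest, median and highest member had 328, 1591 and 3105 CPM in KO_LPS, and 87.5, 1249 and 4175 CPM in WT_LPS. The groups overlapped: 6 of 6542 other cells in KO_LPS (0.0917%) and 58 of 8252 in WT_LPS (0.703%) were at or above the median member, and 15.9% and 78.1% were at or above the lowest one. The next cluster by Btg1 was Cd74+, with 254 CPM in KO_LPS and 331 CPM in WT_LPS, and the lowest was Tmem176+, with 115 and 146 CPM. Btg1 chose the name of the cluster and was among the genes clustered, so these levels describe it and carry no test.

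**Figure D1:**
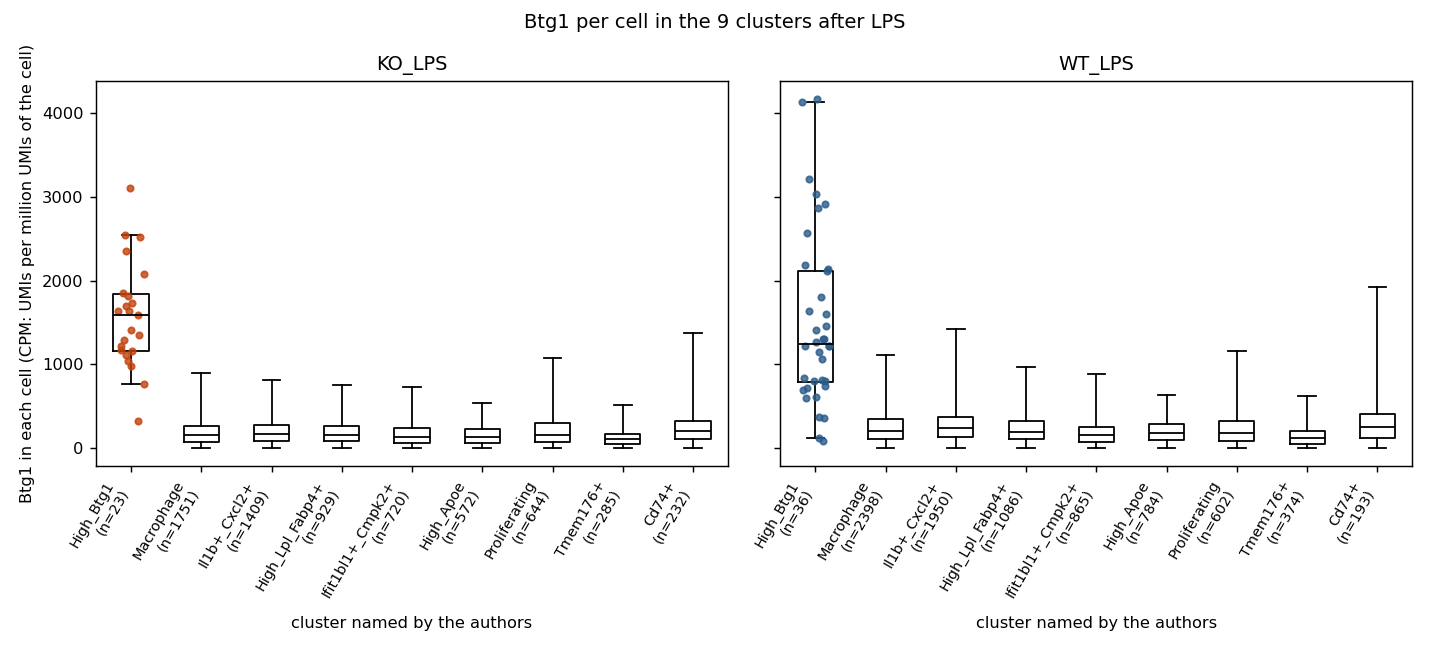
Btg1 in each cell, in CPM of that cell (linear y axis), by cluster (x axis, n cells each) in KO_LPS (left) and WT_LPS (right). Boxes give quartiles and medians, whiskers the 1st and 99th percentiles, and points the 23 and 36 High_Btg1 cells, whose medians of 1591 and 1249 CPM lie above the boxes of the 8 other clusters.

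Btg1 lies on the plus strand of chromosome 10 at 96617006 to 96622809 (GRCm38, the assembly that mm10 names). Its promoter window from RefSeq (GRCm38.p6; 250 bases before and 50 after the start), chr10:96616751-96617050 on the plus strand, is shown because it holds the letters of the FoxO motif. Trib3, a pseudokinase gene induced through ATF4 that was also among the highest, lies on the minus strand of chromosome 2, and its window is chr2:152344011-152344310. Cxcl10, an interferon-induced chemokine among the lowest, lies on the minus strand of chromosome 5, with the window chr5:92348840-92349139. Capitals mark the motif letters found, FoxO in Btg1, the C/EBP-ATF element in Trib3, and the interferon-stimulated response element and overlapping AP-1 and antioxidant letters in Cxcl10.
Btg1: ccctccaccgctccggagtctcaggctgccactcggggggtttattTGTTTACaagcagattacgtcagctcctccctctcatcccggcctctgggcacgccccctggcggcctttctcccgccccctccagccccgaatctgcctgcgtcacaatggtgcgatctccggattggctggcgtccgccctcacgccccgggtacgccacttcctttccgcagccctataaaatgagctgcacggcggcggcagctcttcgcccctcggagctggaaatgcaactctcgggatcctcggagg
Trib3: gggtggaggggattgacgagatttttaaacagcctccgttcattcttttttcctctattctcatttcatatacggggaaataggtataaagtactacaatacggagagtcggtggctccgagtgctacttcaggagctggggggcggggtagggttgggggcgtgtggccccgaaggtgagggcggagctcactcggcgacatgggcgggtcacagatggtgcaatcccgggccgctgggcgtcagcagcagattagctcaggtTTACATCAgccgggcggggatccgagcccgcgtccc
Cxcl10: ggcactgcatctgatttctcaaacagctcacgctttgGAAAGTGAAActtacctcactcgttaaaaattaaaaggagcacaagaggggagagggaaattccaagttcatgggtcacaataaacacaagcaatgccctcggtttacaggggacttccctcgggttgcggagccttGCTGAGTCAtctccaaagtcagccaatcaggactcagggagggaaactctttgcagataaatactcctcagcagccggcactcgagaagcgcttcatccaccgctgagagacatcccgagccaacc

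FoxO letters (TGTTTAC) began at position -204 of Btg1, where the first transcribed base is 1 and the base before it -1. They occur on either strand in the windows of 4.05% of the 27025 genes with a window, in 1 of the 12 highest genes named below that have one, and in 0 of the 10 lowest. The C/EBP-ATF letters (TGATGNAA) lay on the opposite strand at position 15 of Trib3; 4.51% of genes hold them, with 1 of 12 among the highest and 1 of 10 among the lowest. The interferon-stimulated response element, at position -213 of Cxcl10, was held by 3.99% of genes, by 0 of 12 of the highest and by 3 of 10 of the lowest, which were H2-T22, Ifit1bl1 and Cxcl10. AP-1 letters (TGANTCA) were held by 8.97% of genes, by 1 of 12 and 1 of 10, and hypoxia response letters (ACGTG) by 21.8%, by 2 of 12 (Dapk1 and Slc2a1) and 1 of 10. Antioxidant response letters (TGACNNNGC), which may overlap AP-1 ones, were held by 14.0%, by 0 of 12 and 3 of 10, and cAMP response letters (TGACGTCA) by 2.03%, by 0 of 12 and 0 of 10. The matches are a description of these windows.

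Across the transcriptome, under scaling by total UMIs, the cluster had a broad set of higher genes and a short set of lower ones. A gene was compared where at least 20 UMIs were seen in the cluster sum, or were to be expected there at the level of the other cells, in both LPS libraries. Of 3904 such genes, 318 (8.15%) were at least 2-fold higher in the cluster in both libraries and 27 (0.692%) at least 2-fold lower, on the scale of log2(CPM + 10), which understates the ratio of low genes. Here 2-fold is a size and not a test, and since these genes were also clustered, the counts describe the cluster. Many of the 318 met the minimum only through their level in the cluster, so they had to be higher in at least 1 library. Among the 2829 genes that met it at the level of the other cells alone, 130 (4.6%) were higher and 27 (0.954%) lower. By the same rule over those 2829 genes, Ifit1bl1+_Cmpk2+ had 47 higher and 3 lower genes against the rest, Proliferating 32 and 1, and the other 6 clusters at most 10 higher and 14 lower each.

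How many genes counted as higher depended on the scaling. Log2 ratios over the 3904 genes had a median of 0.36 in KO_LPS and 0.36 in WT_LPS. These include the genes that met the minimum only through the cluster, which raises the median. Over the 2829 genes that met it at the level of the other cells, the medians were 0.14 and 0.18. The most abundant mRNAs took a smaller share of the cluster's UMIs. Fth1, the ferritin heavy chain, was 5.40% of the cluster's UMIs in KO_LPS against 10.7% in the other cells, and 5.08% against 11.1% in WT_LPS. Centred on the median of the 3904 genes, 96 genes were higher and 94 lower. Of the genes past 2-fold, 50.5% were then higher, against 92.2% under total scaling. Of the 3904 genes, 3442 lay on the same side of 0 in both libraries. Genes that met the minimum only through the cluster, and medians above 0, raise this count, so it only describes the values. Of the 2829 genes, 42.9% lay above the median of these genes in both libraries and 42.9% below it in both. The cluster ranked first of the 9 clusters in both libraries for 312 of the 318 higher genes and last for 21 of the 27 lower ones. Both sets were chosen by their distance from the other cells, which favours such ranks, so the ranks only describe them. The cluster's sums were most like those of Il1b+_Cxcl2+ (Pearson r 0.896 in KO_LPS and 0.907 in WT_LPS over the 3904 genes) and High_Lpl_Fabp4+ (0.895 and 0.907), with r from 0.874 to 0.902 for the other clusters. Against Il1b+_Cxcl2+ the cluster was 2-fold higher in 314 of the 3904 genes and 2-fold lower in 26, in both libraries. That count again includes genes that met the minimum only through the cluster.

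**Figure D2:**
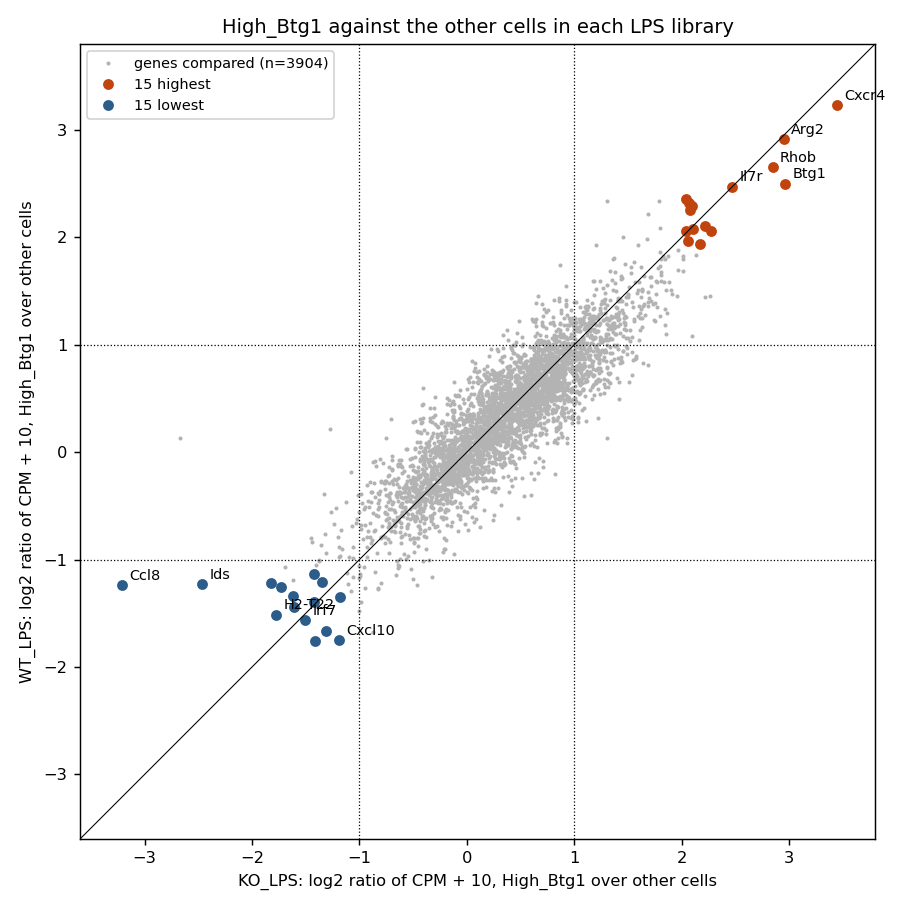
Log2 ratio of CPM + 10, High_Btg1 over the other cells, in KO_LPS (x axis) and WT_LPS (y axis) for the 3904 genes compared; each point is 1 gene and dotted lines mark 2-fold. The 15 highest genes lie between 1.94 and 3.45 in both libraries, and the 15 lowest lie below -1 in both.

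Of the 15 highest genes, 5 besides Btg1 encode receptors or a carrier of the cell surface. Cxcr4, the receptor for the chemokine CXCL12 that holds leukocytes in the marrow, had 127 UMIs in 19 of 23 cells in KO_LPS and 172 UMIs in 27 of 36 in WT_LPS. This was 282 CPM against 16.8 CPM in other KO_LPS cells and 270 CPM against 19.9 CPM in WT_LPS, or 16.8-fold (13.9 to 20.2) and 13.6-fold (11.6 to 15.9). The next cluster, Proliferating, had 27.8 and 36.0 CPM. S1pr1, a receptor for sphingosine-1-phosphate that guides leukocytes out of tissue, had 107 CPM against 17.4 CPM in KO_LPS and 135 against 19.6 CPM in WT_LPS. Il7r, the receptor chain for IL-7 and TSLP, had 173 CPM against 23.1 CPM and 112 against 12.0 CPM; 1 KO_LPS cell held 24.4% of its UMIs. Htr2b, a serotonin receptor, had 51.1 CPM against 2.64 CPM and 40.9 against 2.24 CPM, and the next cluster had 7.16 and 6.65 CPM. Slc2a1, the glucose carrier GLUT1, had 118 CPM against 20.5 CPM in KO_LPS, and was 6.60-fold higher in WT_LPS (5.38 to 8.01).

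The other 9 encode enzymes, signalling and cytoskeletal proteins, regulators and a secreted factor. Arg2, the mitochondrial arginase, had 127 CPM against 7.64 CPM in KO_LPS and 126 against 8.03 CPM in WT_LPS, 16.6-fold (12.4 to 21.7) and 15.7-fold (12.3 to 19.7). Rhob, a small GTPase of endosomes and the cytoskeleton, had 169 CPM against 14.9 CPM and 165 against 17.9 CPM. Dapk1, a calmodulin-regulated kinase linked to cell death, had 140 CPM against 22.3 CPM and 138 against 24.5 CPM. Each of these 3 genes was at least 4-fold higher on the log2(CPM + 10) scale in both libraries, among 13 such genes of the 3904. Metrnl, a secreted factor, had 758 CPM against 174 CPM in KO_LPS and 637 against 156 CPM in WT_LPS, and was found in every member. Trib3 had 53.3 CPM against 4.05 CPM and 45.6 against 4.51 CPM, but in 9 of 23 and 11 of 36 cells. The remaining genes of the 15, with log2 ratios from 2.04 to 2.35 in both libraries, were the tubulin gene Tubb6, Mylip (a ubiquitin ligase for the LDL receptor), the calponin gene Cnn2 and the transcriptional coregulator Ifrd1.

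Most members held most of these genes, which were chosen on the same cells. Of the 14 highest genes other than Btg1, the median member had 11 detected in KO_LPS (7 to 14), against 3 in other cells, and 10 in WT_LPS (7 to 13), against 4. Cells with a Cxcr4 UMI were 82.6% of KO_LPS members against 17.1% of other cells, and in WT_LPS 27 of 36 members against 20.6% of other cells. After thinning to 5000 UMIs these shares were 52.2% against 7.83% and 57.1% against 9.31%. For S1pr1 they were 91.3% against 22.2% and 88.9% against 25.8%, and thinned 56.5% against 8.16% and 45.7% against 9.63%. For Htr2b they were 52.2% against 3.67% in KO_LPS and 30.6% against 2.98% in WT_LPS. No cell type known to lack these genes was present, so free RNA was not measured. The shares in the other macrophages are a comparison level, since those cells may express the genes themselves. Of the 15 genes, Btg1, Ifrd1 and Metrnl alone met the minimum at the level of the other cells.

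**Figure D3:**
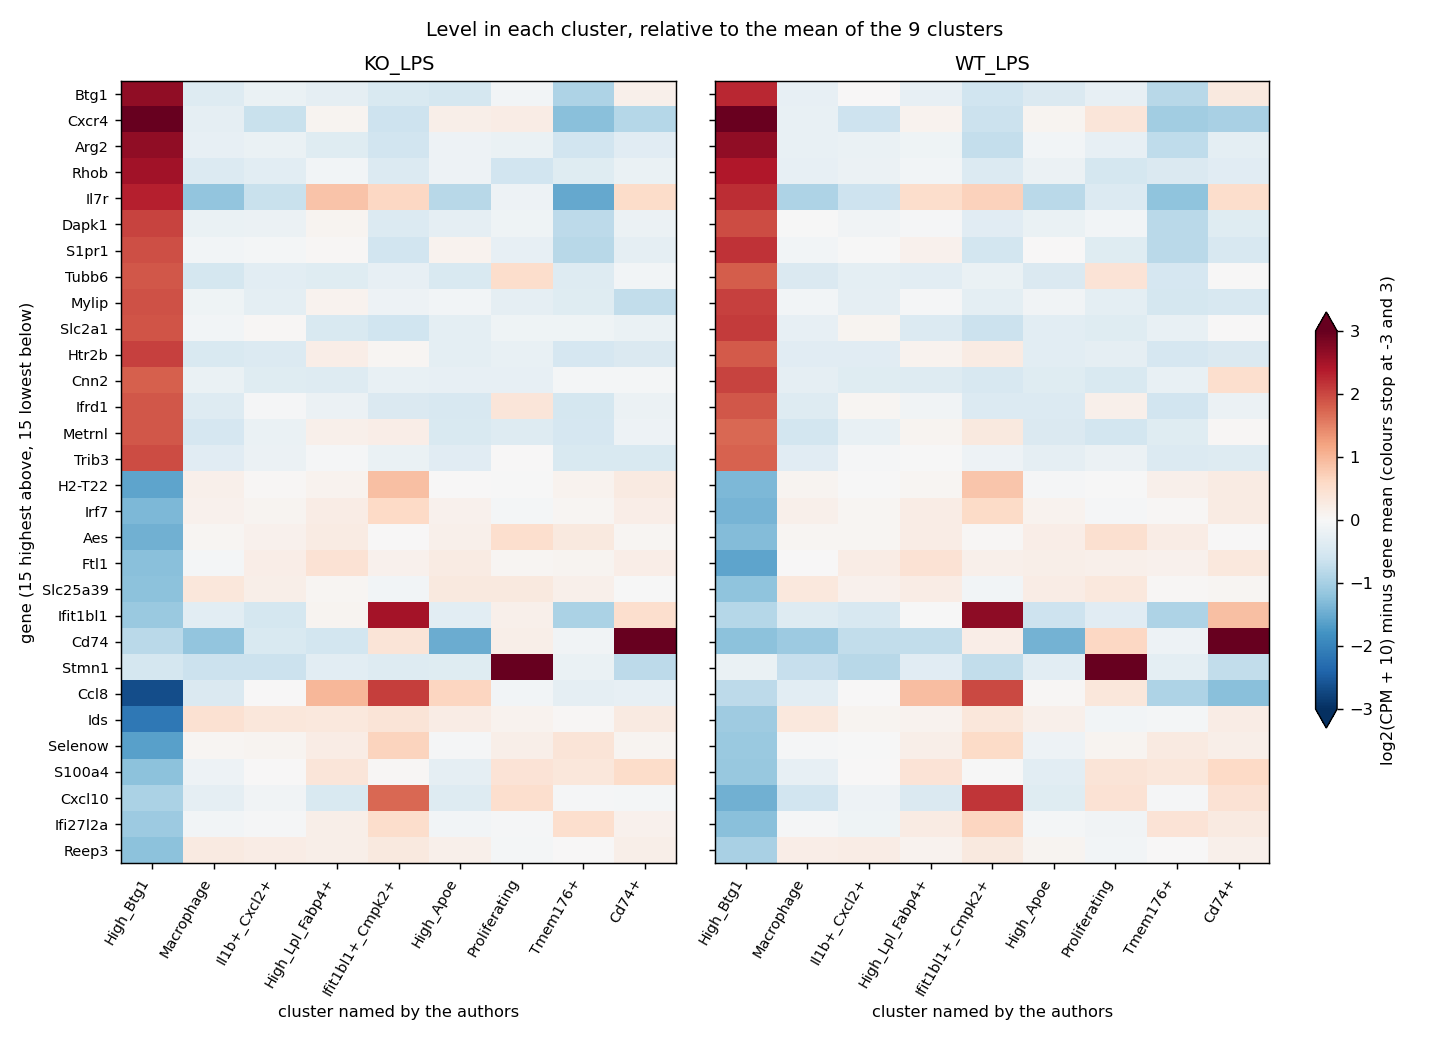
Level of the 15 highest and 15 lowest genes (rows) in the 9 clusters (columns) of KO_LPS (left) and WT_LPS (right), as log2(CPM + 10) minus the gene's mean over clusters; colours stop at -3 and 3. High_Btg1, the leftmost column, is the reddest for the 15 highest genes, while several of the lowest are set apart by another cluster, such as Cd74 in Cd74+ and Stmn1 in Proliferating.

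By a Pearson correlation of log2 CPM over the 18 sums of 9 clusters in 2 libraries, the genes most like Btg1 were Cul1, a scaffold of SCF ubiquitin ligases (r = 0.979), the membrane adaptor Pag1 (0.977), the translation termination factor Etf1 (0.974), the actin regulator Wasl (0.972) and Tnrc6c, a partner of Argonaute in miRNA silencing (0.972). Sums of 1 library share their library, and the pair of High_Btg1 sums weighs on r; over the 16 sums without them r was 0.815, 0.790, 0.781, 0.740 and 0.754. A gene had to reach 50 CPM in at least 1 sum, which Pag1, Wasl and Tnrc6c did only in High_Btg1. Cul1 had 189 CPM against 53.7 CPM in KO_LPS and 167 against 58.8 CPM in WT_LPS. After thinning, Tnrc6c was found in 26.1% of KO_LPS members against 12.3% of other cells, but in 11.4% of WT_LPS members against 12.3%. Cul1, Pag1, Etf1 and Wasl were then found in a larger share of members than of other cells in both libraries.

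The 15 lowest genes were of several kinds, with H2-T22, Irf7, Aes and Ftl1 the lowest by the ratio nearer 0. Irf7, the transcription factor that amplifies type I interferon, had 202 UMIs in KO_LPS and 240 in WT_LPS, which was 449 CPM against 1295 CPM and 377 against 1135 CPM. Ftl1, the ferritin light chain, had 5275 CPM against 14088 CPM in KO_LPS and 3715 against 12630 CPM in WT_LPS. H2-T22, a nonclassical MHC class I gene, had 151 CPM against 541 CPM and 176 against 521 CPM. Each of the 3 was lowest of the 9 clusters in both libraries; H2-T22 and the ferritin genes have close copies whose reads the counting could split. Cxcl10 had 949 CPM against 2178 CPM in KO_LPS and 384 against 1314 CPM in WT_LPS, and Ifi27l2a, another interferon-induced gene, 1291 CPM against 2935 CPM and 1194 against 3058 CPM. S100a4, a calcium-binding protein, had 202 CPM against 530 CPM and 178 against 423 CPM. Others of the 15 were Aes (a corepressor), Slc25a39 (a mitochondrial glutathione importer), Selenow (a selenoprotein) and Reep3 (an endoplasmic reticulum protein), each last of 9 in both libraries, with log2 ratios from -1.83 to -1.14.

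Some of the 15 lowest rest on few UMIs or on the make-up of the other cells. Ids, a lysosomal sulfatase, had 0 UMIs in KO_LPS, which against a floor of 3 UMIs makes it at least 6.78-fold lower than the 45.2 CPM of the other cells, and 10 UMIs in WT_LPS, 15.7 CPM against 50.4 CPM. The chemokine gene Ccl8 had 4 UMIs in KO_LPS and 21 in WT_LPS, where 1 cell held 66.7% of them. Cd74, the MHC class II invariant chain, had 62.2 CPM against 169 CPM in KO_LPS and 23.6 against 96.8 CPM in WT_LPS, where 1 cell held 42.9% and 46.7% of its UMIs, and the Cd74+ cluster had 1998 and 1805 CPM. Stmn1, a microtubule destabiliser of dividing cells, had 22.2 CPM against 97.0 CPM and 28.3 against 81.8 CPM, with 677 and 760 CPM in Proliferating. Set against the cluster named Macrophage alone, Cd74 had log2 ratios of 0.38 in KO_LPS and -0.14 in WT_LPS, and Stmn1 0.10 and 0.49. Ifit1bl1, an interferon-induced gene, had 51.1 CPM against 177 CPM and 39.3 against 115 CPM, with 747 and 569 CPM in the cluster named for it.

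Gene lists were read over members that met the minimum at the level of the other cells, beside the medians of all 2829 such genes, 0.14 in KO_LPS and 0.18 in WT_LPS. Of all 2829 genes, 42.9% lay above both of these medians and 42.9% below both, and 4.6% were past 2-fold higher and 0.954% lower; the counts of each list stand beside these shares. Of regulators of chromatin and splicing, 18 of 19 compared lay above both all-gene medians and 0 below both, with list medians of 0.75 and 0.69. Crebbp, a histone acetyltransferase, was 3.48-fold higher in KO_LPS (2.77 to 4.32), and in WT_LPS had 179 CPM against 56.7 CPM, and Srrm2, a spliceosome protein, had 436 against 202 CPM and 491 against 210 CPM; they were the 2 past 2-fold in both. Heat shock chaperones had medians of 0.88 and 0.79 over 6 genes, all above, with Hsp90aa1 at 531 CPM against 194 CPM in KO_LPS and 541 against 196 CPM in WT_LPS. Of the genes of quiescence and FoxO, 4 of 5 lay above (medians 0.76 and 0.79) and Txnip, a brake on glucose uptake and thioredoxin, was the 1 past 2-fold, with 293 CPM against 73.9 CPM and 261 against 85.5 CPM. Klf2, a FoxO-driven factor of resting leukocytes, had log2 ratios of 0.67 and 0.94.

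**Figure D4:**
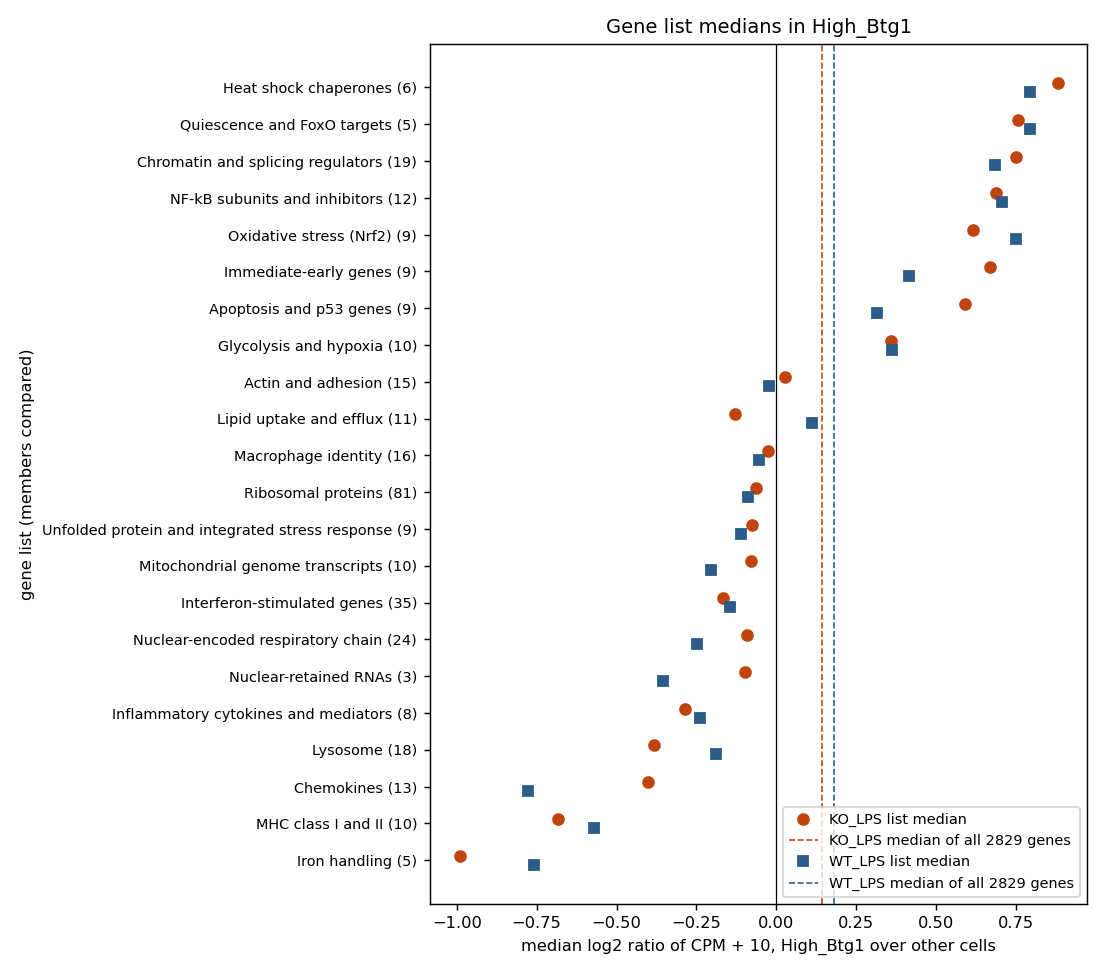
Median log2 ratio of CPM + 10, High_Btg1 over the other cells (x axis), for each gene list with at least 3 members whose minimum was met by the other cells (y axis, number of members in brackets), in KO_LPS (circles) and WT_LPS (squares). Dashed lines are the medians of all 2829 genes; the heat shock chaperones are at 0.88 and 0.79, and the lowest medians are those of iron handling in KO_LPS (-0.99) and of chemokines in WT_LPS (-0.78).

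Genes of NF-kB itself and of chemokines lay on opposite sides of the all-gene medians. Over 12 NF-kB subunits and inhibitors the medians were 0.69 and 0.71, with 9 above both all-gene medians and 0 below both. Nfkb2 had 160 CPM against 70.5 CPM in KO_LPS and 179 against 70.7 CPM in WT_LPS, and Relb, its partner in the noncanonical arm, 122 against 55.5 CPM and 129 against 50.5 CPM. Traf1, an adaptor of TNF receptors, had 153 against 48.6 CPM and 154 against 50.2 CPM, and these were the 3 past 2-fold. Of 13 chemokines, 10 lay below and 3 above, with medians of -0.40 and -0.78. The 3 at least 2-fold lower in both were Ccl7, Ccl8 and Cxcl10. Ccl7 ranked 9 and 7 of the 9 clusters, and against the Macrophage cluster alone its log2 ratios were -0.48 in KO_LPS and 0.039 in WT_LPS. Ccl3 and Cxcl2 were on the other side, with log2 ratios of 0.55 and 0.42, and 0.40 and 0.57. Of 8 inflammatory mediators 6 lay below and 0 above (medians -0.29 and -0.24); Tnf had 40.0 CPM against 98.8 CPM in KO_LPS and 48.8 against 71.0 CPM in WT_LPS, where 1 cell held 45.2% of its UMIs.

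Interferon-stimulated genes lay on both sides, more of them below. Of 35 compared, 23 lay below both all-gene medians and 9 above both (list medians -0.17 and -0.15), and only Irf7 was past 2-fold. Mx1, an antiviral GTPase, had 153 CPM against 281 CPM in KO_LPS and 153 against 224 CPM in WT_LPS; Bst2, a virion tether, had 1780 against 2723 CPM and 1659 against 2635 CPM. On the other side, Oasl1 had log2 ratios of 0.53 and 0.35 and the RNA sensor gene Ifih1 0.36 and 0.48. Of 10 MHC genes 8 lay below and 2 above (medians -0.68 and -0.57). The class I heavy chain H2-D1 had 1531 CPM against 2453 CPM and 1404 against 2344 CPM, and Tapbp, which loads peptide, 476 against 915 CPM and 442 against 878 CPM, while the peptide pump genes Tap1 and Tap2 were the 2 above.

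Most lysosomal genes lay below the all-gene medians, and the iron genes were split. Of 18 lysosomal genes 16 lay below and 1 above, with medians of -0.38 and -0.19 and 0 past 2-fold. The protease gene Ctsd had 2414 CPM against 3949 CPM in KO_LPS and 2244 against 3655 CPM in WT_LPS, and Lamp1, a lysosomal membrane protein, 738 against 1183 CPM and 722 against 1213 CPM. The exception was Ctsl, with 3803 CPM against 2556 CPM and 2543 against 1530 CPM. Of 5 iron genes 3 lay below and 2 above. Below were the ferritins and Lcn2, a siderophore-binding protein, with 73.3 CPM against 198 CPM and 115 against 201 CPM. Above were Slc11a1, a metal transporter of phagosomes, with log2 ratios of 0.38 and 0.31, and Hmox1, the haem-degrading enzyme, with 1234 CPM against 587 CPM and 1002 against 565 CPM. Ferritin, Hmox1 and Gclm are all known Nrf2 targets, and the Nrf2 list had 7 of 9 genes above (medians 0.62 and 0.75). Its factor gene Nfe2l2 had 505 CPM against 134 CPM and 404 against 128 CPM, and Gclm, of glutathione synthesis, 178 against 57.4 CPM and 140 against 61.6 CPM.

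Glucose and stress genes held several high members. Of 17 compared glycolysis and hypoxia genes, 7 were at least 2-fold higher in both, but 6 of them, Slc2a1, Hk2, Pfkl, Pfkp, Slc16a3 and Bnip3, met the minimum only through the cluster. Hk2, the first enzyme of glycolysis, had 82.2 CPM against 26.7 CPM in KO_LPS and 148 against 39.0 CPM in WT_LPS, and the lactate exporter gene Slc16a3 136 against 39.9 CPM and 165 against 58.5 CPM. Among the 10 read at the level of other cells, 8 lay above (medians 0.36 and 0.36), and Hif1a, the hypoxia factor, was the 1 past 2-fold, with log2 ratios of 1.23 and 1.29. Of 9 stress response genes 5 lay below and 2 above: the factor Atf4 had 362 CPM against 152 CPM and 371 against 158 CPM, whereas the chaperone genes Calr and Pdia4 had log2 ratios of -0.76 and -0.85, and -0.63 and -0.37. Of the 9 apoptosis and p53 genes 7 lay above, with 0 past 2-fold in both (medians 0.59 and 0.32). The death genes Bcl2l11 (184 CPM against 34.2 CPM, and 165 against 39.1 CPM) and Bbc3 (62.2 against 9.69 CPM, and 62.9 against 10.5 CPM), both FoxO-driven in other cells, passed only through the cluster.

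Early response, cell cycle and deadenylase genes gave no single direction. Of 9 immediate-early genes 5 lay above and 4 below; Atf3 had 385 CPM against 91.0 CPM in KO_LPS and 269 against 76.3 CPM in WT_LPS and Jun 280 against 102 CPM and 321 against 84.7 CPM, while Fos had log2 ratios of -0.87 and -0.56. The division genes Mki67 and Top2a were found in shares of members whose intervals include the shares of the other cells. Mki67 was found in 2 of 23 and 4 of 36 members (1.07% to 28.0%, and 3.11% to 26.1%), against 16.1% and 16.6% of other cells. Top2a was found in 3 and 4 members, against 13.5% and 11.5% of other cells. Of 19 genes of G2 and M phase only Hmgb2 was compared, at 267 CPM against 97.3 CPM and 233 against 95.6 CPM, and of 17 S phase genes 3 were compared with 0 past 2-fold. Within Btg1's own family, Btg2 and Tob2 had log2 ratios of 0.97 and 0.77, and 0.87 and 0.52, both through the cluster's own level. Of the deadenylase list, the scaffold gene Cnot1 and Pabpc1, the poly-A binding protein, met the minimum at the level of other cells, and both lay below, at -0.40 and -0.52, and -0.33 and -0.37. The other members compared passed only through the cluster's own level and had log2 ratios above 0. These were Cnot2 (1.48 and 0.99), Cnot3 (0.94 and 0.78), Cnot4 (0.93 and 0.088) and Cnot8 (0.44 and 0.77).

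Housekeeping transcripts were slightly low. Of 81 ribosomal protein genes 72 lay below both all-gene medians and 3 above (list medians -0.06 and -0.09), as did all 10 mitochondrial genome transcripts (-0.08 and -0.21) and 16 of 24 nuclear respiratory chain genes (-0.09 and -0.25), with 0 of these past 2-fold. The nuclear RNAs Malat1, Xist and Neat1 lay below (list medians -0.10 and -0.36). Of 15 actin and adhesion genes, 9 lay below and 3 above, and Actg1, a cytoplasmic actin, was past 2-fold, with 3236 CPM against 1219 CPM in KO_LPS and 2950 against 1228 CPM in WT_LPS. Of 11 lipid genes, 7 lay below and 3 above. Fabp4, a fatty acid carrier, had 400 CPM against 108 CPM and 285 against 70.8 CPM, with 355 and 237 CPM in the cluster High_Lpl_Fabp4+ named for it, and the lipid droplet gene Plin2 836 against 377 CPM and 755 against 287 CPM. Of 16 macrophage identity genes 9 lay below and 5 above: Lyz2, given above, was the 1 past 2-fold lower, whereas Mertk, an engulfment receptor, had 133 against 48.2 CPM and 118 against 52.2 CPM.

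Between the library labelled Trpv4-null and wild type, both after LPS, the cluster's cells differed in few genes. Btg1 was 1.12 times as high in KO_LPS as in WT_LPS cluster cells (1.01 to 1.25), against 0.807 times in the other cells of these libraries. Of 4157 genes compared, 17 (0.409%) were at least 2-fold higher in KO_LPS within the cluster and 21 (0.505%) at least 2-fold lower. The interval of the ratio excluded the ratio of the other cells for 361 of the 4157 genes (8.68%), an interval that leaves out the spread between cells. Each named gene below was chosen for this difference, so its values describe these 2 libraries. The label itself could not be checked, since Trpv4 RNA was higher in KO_LPS than in WT_LPS.

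Marco, a scavenger receptor for bacteria and particles, differed most. It had 3 UMIs in 2 of 23 KO_LPS members and 147 UMIs in 11 of 36 WT_LPS members, or 6.67 CPM (1.38 to 19.5) against 231 CPM (195 to 272), a ratio of 0.0288 (0.00588 to 0.0860). In the other cells it had 95.9 CPM in KO_LPS and 211 CPM in WT_LPS, a ratio of 0.455. Arg1, the cytosolic arginase, had 4 UMIs in 2 KO_LPS cells against 48 UMIs in 13 WT_LPS cells, 8.89 against 75.5 CPM, with 2.37 and 3.67 CPM in the other cells. The arginine carrier gene Slc7a2 had 15.6 CPM in KO_LPS against 73.9 CPM in WT_LPS, Gltp (a glycolipid carrier) 26.7 against 80.2 CPM, and Atic (a purine synthesis enzyme) 13.3 against 47.2 CPM. Arg2, by contrast, had 127 CPM in KO_LPS and 126 CPM in WT_LPS.

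For the 5 genes highest in KO_LPS, 1 cell held between 30.6% and 76.9% of the cluster's UMIs. Cxcl9, an interferon-gamma chemokine, had 30 UMIs in 4 of 23 KO_LPS members, 66.7% of them in 1 cell, against 7 in WT_LPS. S100a8 had 39 UMIs in 8 members, 76.9% in 1 cell, against 12, and the kinase gene Plk2 had 65 UMIs in 15 members, 46.2% in 1 cell, against 28. Ccl12 had 462 CPM in KO_LPS against 159 CPM in WT_LPS, with 41.8% of the UMIs in 1 of the 18 KO_LPS members that had it, and Ccl4, found in 23 of 23, had 1409 CPM against 541 CPM, with 30.6% in 1 cell; in the other cells the ratios were 1.65 and 2.02. Ccl12 has close relatives in Ccl2 and Ccl7 that may share its counts.

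**Figure D5:**
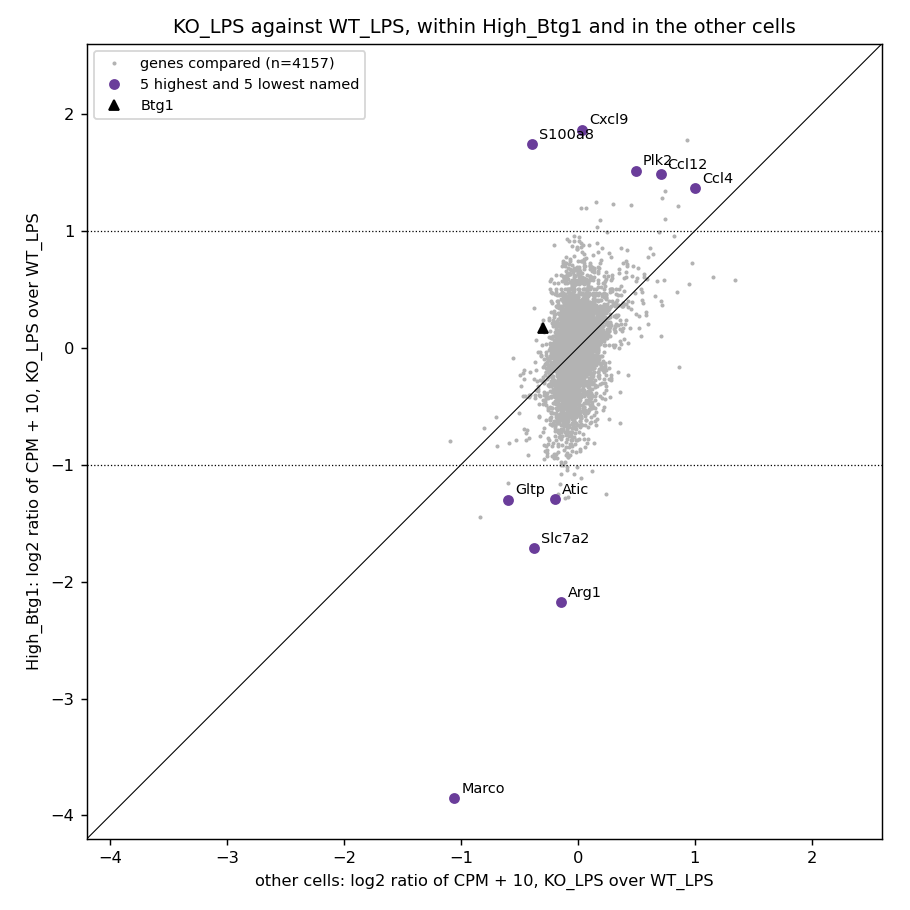
Log2 ratio of CPM + 10, KO_LPS (labelled Trpv4-null) over WT_LPS, in the other cells (x axis) and in High_Btg1 (y axis) for the 4157 genes compared; each point is 1 gene, the line marks equal ratios and dotted lines 2-fold. The 10 named genes and Btg1 are marked, and Marco lies lowest at -3.85 in High_Btg1.

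The 8 untreated members are set beside the other untreated cells of their library. Btg1 had 28 UMIs in 2 of 3 KO_UnT cells and 15 UMIs in 4 of 5 WT_UnT cells, and 90.0% and 81.4% of the other untreated cells had it. Cxcr4 had 14 UMIs in 3 of 3 and 15 in 5 of 5, against 74.4% and 63.0% of the other cells. Il7r had 17 UMIs in 3 of 3 and 7 in 4 of 5, and Rhob 7 in 3 of 3 and 8 in 4 of 5; of the other cells 44.6% and 39.4% had Il7r and 44.7% and 42.1% Rhob. Metrnl had 29 UMIs in 3 of 3 and 19 in 5 of 5, against 72.5% and 68.3%. Mylip was found in 3 and 2 cells, Tubb6 in 2 and 3, S1pr1 in 2 and 2, Ifrd1 in 2 and 1, Dapk1 in 1 and 1, and Cnn2 and Trib3 in 1 and 0. Arg2, Slc2a1 and Htr2b had 0 UMIs in all 8. Of the other cells 1.02% and 0.641% had Arg2, 5.18% and 4.03% Slc2a1, and 1.79% and 1.34% Htr2b. The 8 members summed to 35636 UMIs in KO_UnT and 30347 in WT_UnT, too few for a level.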

How the data were processed

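Single-cell RNA profiles of 4 libraries, 1 per group, were analysed from a raw count table of 14432 genes in 27366 cells and the cell annotation that the authors deposited. Per the file headers the counts are UMIs per gene and cell in a Seurat object; summed per cell they equalled the annotated UMIs in 27366 of 27366 cells, which held 1003 to 39987 UMIs. The deposited annotation also gives the mitochondrial fraction of each cell's UMIs (at most 10.0%), the ratio of log10 genes to log10 UMIs, and the 2 UMAP coordinates, a score computed by the authors. The submitters' processing notes list mm10, R 4.2, Seurat 4 and Cell Ranger 3.1.0, with no word here on how each was applied or whether counting used strand. Genes that overlap on opposite strands, and close copies (ferritins, H2-T22, Ccl2, Ccl7, Ccl8 and Ccl12, Ifit1bl1), are therefore uncertain.

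UMIs were summed per library and deposited cluster name and scaled to 1000000. The main scale was log2((CPM + 10)/(CPM + 10)) for genes with at least 20 UMIs seen or expected in the cluster; fold changes on it understate low genes. With 1 library per group no test was possible. Levels have exact Poisson intervals, ratios exact conditional ones and shares Clopper-Pearson ones, all at 95%, covering counting error only; a count of 0 was given a floor of 3 UMIs per sum. Detection was compared after thinning to 5000 UMIs per cell. Named genes were the 15 highest and the 15 lowest by the log2 ratio nearer 0 of both LPS libraries, the 5 highest and 5 lowest between genotypes, the 5 most like Btg1, and up to 4 members of each list, and a few list members were added after their values were seen. Members and lists were chosen with earlier results of these data known, and the restriction to 2829 genes was chosen after seeing the data. Promoter windows and positions came from RefSeq (GRCm38.p6) and GENCODE M21. Sums and ratios were tested on simulated data. The tools were matplotlib 3.10.9, pandas 2.3.3, scipy 1.17.1 and numpy 2.4.6 in Python 3.11.15. Other scalings, minimums, comparison cells and left-out cells were tried as alternatives.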

Additional observations from a re-analysis of the deposited data

Results flagged for a closer look

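Marco was low in the cluster in KO_LPS and near the level of the other cells in WT_LPS. Its log2 ratio of CPM + 10, High_Btg1 over other cells, was -2.67 in KO_LPS, where the cluster held 3 UMIs in 2 of 23 cells, and 0.13 in WT_LPS, where it held 147 UMIs in 11 of 36 cells. The WT_LPS ratio was 1.10, with an interval of 0.927 to 1.29 that includes 1. Both groups are 1 library, so the difference between them was not tested.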

How the results depend on the processing

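No paired analysis was possible because each group is 1 library, and no replicate could be left out for the same reason. Against 318 higher and 27 lower genes on the main scale, centring on the median gene gave 96 higher and 94 lower. A pseudocount of 1 CPM gave 506 higher, KO_LPS alone 570 higher and 54 lower, and WT_LPS alone 563 higher and 52 lower. Chosen after seeing the data, the minimum met by the other cells alone gave 130 higher. Leaving out each gene's highest cell, also chosen after seeing the data, tends to lower values by construction and gave 237 higher and 45 lower. Between genotypes within the cluster (17 higher and 21 lower), a minimum of 10 UMIs gave 41 and 65, the mean over cells gave 33 lower, and leaving out each gene's highest cell 32 lower. Against the Macrophage cluster alone, Cd74 turned to higher in KO_LPS (0.38, and -0.14 in WT_LPS), Stmn1 in both libraries (0.10 and 0.49) and Ccl7 in WT_LPS (0.039, and -0.48 in KO_LPS); the cause was not tested. Of the 65 named genes past 2-fold in both libraries, these 3 turned in at least 1 library in any of 14 settings, which counts the library with the weaker change. Over these genes and settings, 660 values stayed at the main value or within its counting interval, 247 moved and 3 reversed. That interval is of the ratio without the added 10 CPM, so low genes can count as moved after a small change. The cluster sums limit genes under 20 UMIs, and 23 and 36 cells limit shares and genes carried by single cells.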
